A study of Mus musculus with 48 samples.

Results

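The genes described here are Trp53, which encodes the transcription factor p53, the inhibitors of p53, and genes that p53 is known to switch on. The 30 genes were chosen by symbol and not by a measured value, though earlier results of these data were known at the time. All 30 were found among the 55487 genes of the count table. The study measured RNA and ribosome footprints in 24 clones of Ba/F3, a mouse cell line that grows in interleukin 3, with 3 clones for each of 8 genotypes and 1 RNA and 1 footprint library from each clone. The genotypes were WT, Rpl5+/-, Rpl11+/-, Rpl22+/- and Rpl22-/-, which lack 1 or both copies of the named gene, and the point mutants Rpl10 R98S, Rps15 P131S and Rps15 H137Y, which carry the change on both alleles per the genotype labels. The titles of the Rps15 P131S libraries differ, with P131S for RNA and P131S/P131S for footprints. All mutant clones came from CRISPR-Cas9 editing. Every group, WT included, grew in 10% serum with interleukin 3 at 1 ng/ml and received cycloheximide at 0.1 mg/ml during the last 1 min of culture. Footprints are the messenger RNA pieces, here of 28 to 30 nt, left under ribosomes after nuclease digestion. Each replicate is 1 clone, so the spread between replicates includes differences between clones of 1 genotype.

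p53 is kept scarce by Mdm2, a ubiquitin ligase that marks it for destruction, with help from the related protein Mdm4. The ribosomal proteins Rpl5 and Rpl11, bound to 5S ribosomal RNA, can attach to Mdm2 and block it when they are not built into ribosomes, and p53 then accumulates and switches on genes for arrest, death and repair. Much of this control acts on the p53 protein, which neither RNA-seq nor footprints measure. Levels are given as CPM, counts scaled to a common library size, which compare samples and not genes. Values of 3 clones are listed by rising clone label: 1, 2 and 3 for WT, 68, 76 and 80 for Rpl5+/-, 22, 406 and 414 for Rpl11+/-, 13, 16 and 60 for Rpl22+/-, 30, 649 and 776 for Rpl22-/-, A29, A30 and A34 for Rpl10 R98S, 20, 24 and 63 for Rps15 P131S, and 16, 2 and 6 for Rps15 H137Y. Changes are on the log2 scale and stand with ± 1 standard error, and a gene is called when its adjusted p from edgeR's quasi-likelihood test is under 0.05.

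p53 binds DNA at its response element, a pair of decamers, each of 10 bases. The 250 bases before each RefSeq transcript start (GRCm38.p6) were searched for such a pair with a spacer of at most 13 bases and at most 2 mismatches, none of them at the conserved C and G of a decamer. The element reads alike on both strands, so 1 search covers both. Of the 30 genes, 22 were in the promoter table with 30 starts, and 6 genes had a match, each at 1 start. Of all 32851 promoters in that table, 3.34% had a match. All 6 matches are printed, to show what letters were found. Capitals mark the decamers, each read on the strand of its gene.
Ccng1, chr11:40755462-40755481, minus strand: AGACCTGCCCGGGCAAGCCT
Bax, chr7:45467079-45467099, minus strand: AGGCAAGCTTtGAACTTGCGG
Rps27l, chr9:66946296-66946315, plus strand: GGGCTTGTTGAGACTTGTCC
Cdkn1a, chr17:29090906-29090937, plus strand: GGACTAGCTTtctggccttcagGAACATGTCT
Gadd45a, chr6:67037438-67037463, minus strand: GGACCTGGTTggctgaGGGCTAGCCC
Sesn1, chr10:41887253-41887275, plus strand: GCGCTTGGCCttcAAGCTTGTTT
The 20 bases of Ccng1 and of Rps27l held 2 adjoining decamers with 1 mismatch, while the pair in Cdkn1a had no mismatch and a spacer of 12 bases. A match describes letters in this window, and binding of p53 was not measured.

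Total counts were 13029073 to 38258559 per RNA library and 15598994 to 72044439 per footprint library. In the targeted genes, Rpl5 RNA was 1589, 1535 and 1544 CPM in Rpl5+/- against 2283, 2338 and 2327 CPM in WT, and Rpl11 RNA was 1063, 1150 and 1008 CPM in Rpl11+/- against 1665, 1670 and 1686 CPM in WT. Rps15 RNA was 1446, 1433 and 1455 CPM in WT, 1935, 906.7 and 1825 CPM in P131S and 1829, 874.8 and 817.4 CPM in H137Y, so P131S clone 24 and H137Y clones 2 and 6 lay below WT and the other 3 above it. Rpl10 RNA was 1800, 1885 and 1765 CPM in R98S against 1884, 1960 and 1982 CPM in WT. A gene's level does not show whether a point change is present, and the part of these Rps15 levels in the results was not tested. The library labelled Rpl22-/- clone 30 had 1545 CPM of Rpl22 footprints, against 274 and 317 CPM in the other Rpl22-/- clones and 1429 to 1596 CPM in Rpl22+/-. It therefore goes against its label, and the Rpl22-/- counts of calls in the main fits, and the changes of the genes named there, are given with and without it. Rpl22-/- counts at an unadjusted p, by DESeq2 or limma voom, and with 2 genotypes fitted alone include it. Of the markers of B cell precursors, Ptprc was present at 167 to 302 CPM of RNA, while Pax5, Ebf1, Vpreb1, Igll1, Rag1, Rag2 and Dntt stayed at or near 0 (at most 0.301 CPM). Bulk libraries cannot tell fewer cells that express a gene from less RNA of that gene per cell.

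Few of the p53 genes were called in Rpl5+/- or Rpl11+/- cells, and more were called in the Rps15 mutants, where much of the transcriptome was called too. In RNA, 26 of the 30 genes were tested. None was called in Rpl5+/- against WT, where 1.04% of all genes tested were called, and 2 had an unadjusted p under 0.05, against 14.8% of all genes. DESeq2 and limma voom called 0 as well. Their shares of all genes are not given here, so those counts of 0 show nothing particular to these genes. The main fit takes its spread from the clones of all genotypes. Fitted alone with WT, however, Rpl5+/- had 1 gene higher and 5 lower, against 14.1% of all genes in that fit. The cause of this shift was not tested. In Rpl11+/- 1 gene was called, Plk3, which was higher, against 11.8% of all genes. Plk3 was also the 1 gene called in Rpl22+/-, against 3.9% of all genes, and in Rpl22-/-, against 5.27% of all genes, and remained the 1 gene called without the labelled clone 30, against 2.73% of all genes. Rpl10 R98S had 3 genes higher and 1 lower, against 12.8% of all genes, and leaving out any 1 of the 6 clones left 1 or 2, against 6.24% to 8.57% of all genes. Rps15 P131S had 3 higher and 6 lower, against 47% of all genes. Rps15 H137Y had 3 higher and 6 lower, against 41% of all genes. The called share of the 26 genes was 0% in Rpl5+/-, 3.85% in Rpl11+/- and in each Rpl22 genotype, 15.4% in Rpl10 R98S and 34.6% in each Rps15 genotype. The median change of the 26 genes lay between -0.16 (Rps15 P131S) and 0.15 (Rpl11+/-), while that of all genes tested lay between -0.01 and 0.01.

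In footprints 27 genes were tested. No gene was called in Rpl5+/- (0.0123% of all genes), Rpl11+/- (0.074%), Rpl22+/- (0.253%), Rpl22-/- (0.105%) or Rpl10 R98S (1.62%). At an unadjusted p under 0.05 these comparisons held 1, 8, 7, 2 and 4 of the 27 genes, in the same order, against 4.11%, 9.86%, 13.7%, 6.73% and 13.6% of all genes. Without the labelled Rpl22-/- clone 30, no gene was called in Rpl22-/- either, against 0.0493% of all genes. limma voom called 0 in all 5, and DESeq2 called 0 in 4 of them and Fas and Cdkn1a in Rpl11+/-, against 1.48% of all genes. Shares of all genes are not given here for limma voom, nor for DESeq2 where it called 0. Those counts of 0 therefore show nothing particular to these genes. Rps15 P131S had 2 genes higher and 3 lower, against 16.7% of all genes, and Rps15 H137Y had 2 higher and 2 lower, against 11.7% of all genes. All comparisons with WT share the same 3 WT clones.

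Marker genes of other blood cells and the interleukin 3 receptor also moved in the Rps15 genotypes. The counts of markers called below stand beside 47% of all genes called in RNA of P131S and 41% in H137Y. RNA of the 3 interleukin 3 receptor genes summed to 2230 to 2840 CPM in P131S and 1420 to 2510 CPM in H137Y, against 876 to 1040 CPM in WT, and Csf2rb and Csf2rb2 rose in both. The 5 erythroid markers, all of them detected, summed to 61.1 to 120 CPM in P131S and 150 to 537 CPM in H137Y, against 99.5 to 122 CPM in WT. Of these, 3 fell in P131S (Gata1, Klf1 and Epor) and 3 rose in H137Y (Klf1 and the globins Hbb-b1 and Hba-a1). The myeloid markers summed to 29.5 to 105 CPM in P131S and 51.2 to 149 CPM in H137Y, against 32.6 to 47 CPM in WT. Of the 5 tested, 2 rose in P131S and 4 in H137Y, while Elane, not tested, stayed near 0. The mast cell and basophil markers summed to 433 to 580 CPM in P131S and 342 to 427 CPM in H137Y, with Kit at 0 in both, against 442 to 475 CPM in WT. Of the 3 tested, 2 rose and 1 fell in P131S, and 1 rose and 1 fell in H137Y. The part of these genes in the Rps15 results was not tested.

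**Figure D1:**
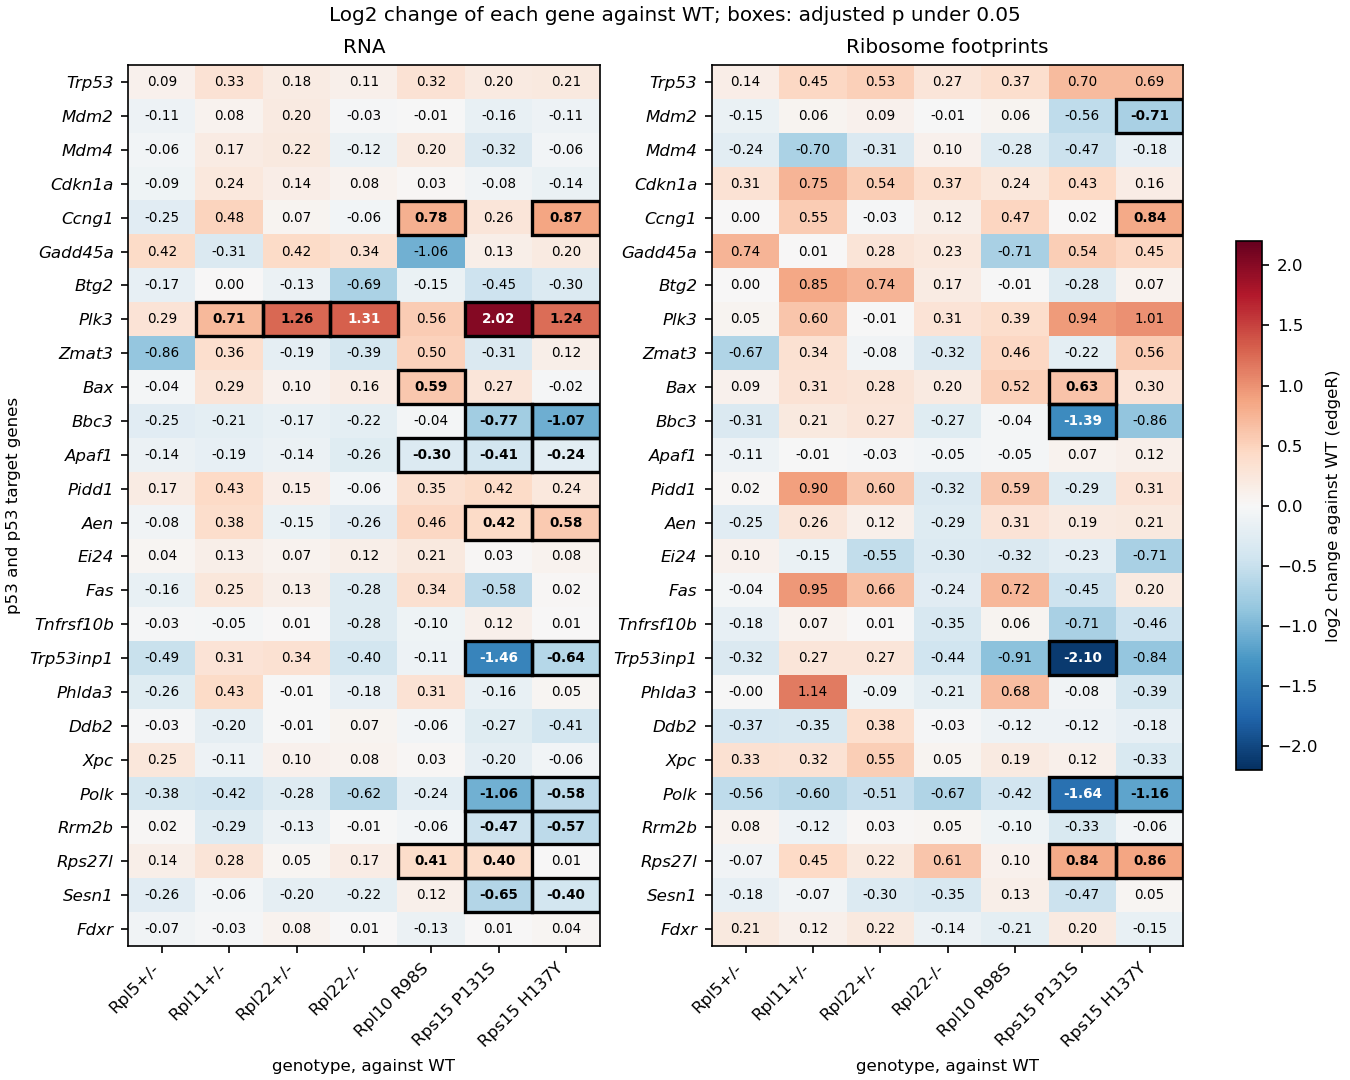
Log2 change of RNA (left) and ribosome footprints (right) of each gene in 7 mutant genotypes (columns) against WT, from the edgeR fit, with 3 clones per group. Boxed cells are called; most lie in the 2 Rps15 columns, and none lies in the Rpl5+/- column. Eda2r, which was tested in footprints only, is left out of the right panel.

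Trp53 RNA was slightly higher than WT in most mutants, without being called in any in the main fit. It was 105.5, 105.7 and 106.5 CPM in WT, 111, 109 and 117 CPM in Rpl5+/- and 151, 134 and 114 CPM in Rpl11+/-. It was 118, 126 and 116 CPM in Rpl22+/-, 96.8, 114 and 132 CPM in Rpl22-/- and 134, 132 and 131.3 CPM in Rpl10 R98S. The Rps15 clones had 139.7, 113 and 112 CPM (P131S) and 121, 139 and 107 CPM (H137Y). Every clone of these genotypes lay above all 3 WT clones, except in Rpl22-/-, where the labelled clone 30 (96.8 CPM) lay below. The change was 0.33 ± 0.11, adjusted p = 0.0564 in Rpl11+/- and 0.32 ± 0.11, adjusted p = 0.0552 in Rpl10 R98S, and over the alternatives run the Rpl11+/- change ran from 0.224 without clone 22 (adjusted p = 0.29) to 0.426 without clone 414 (adjusted p = 0.0126). In Rpl22-/- it was 0.11 ± 0.11, adjusted p = 0.697, and 0.21 (adjusted p = 0.417) without the labelled clone 30. DESeq2 called Trp53 RNA higher in Rpl11+/- and Rpl10 R98S, and edgeR fits with WT alone did so in Rpl10 R98S and Rpl22+/-. Trp53 footprints were 189.6, 182 and 192 CPM in WT, 239, 204 and 179 CPM in Rpl5+/- and 374, 223 and 175 CPM in Rpl11+/-. They were 243, 229.6 and 338 CPM in Rpl22+/-, 213, 183 and 283 CPM in Rpl22-/- and 264, 225 and 239 CPM in Rpl10 R98S. Rpl22+/- and Rpl10 R98S clones lay above WT without a call, and Rpl22-/- overlapped it. Trp53 footprints were 422, 265 and 229 CPM in Rps15 P131S (change 0.70 ± 0.24, adjusted p = 0.0535) and 344, 304 and 262 CPM in Rps15 H137Y (change 0.69 ± 0.24, adjusted p = 0.071). The Rps15 clones lay above all WT clones, the Rpl5+/- and Rpl11+/- clones on both sides of them. DESeq2 called Trp53 footprints higher in both Rps15 genotypes. Over the alternatives run, the P131S change ran from 0.406 without clone 20 (adjusted p = 0.343) to 0.888 without clone 63 (adjusted p = 0.0277).

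Mdm2 is both the main brake on p53 and a gene that p53 switches on. Its RNA was 97.2, 97.5 and 93.7 CPM in WT, 84.7, 86.8 and 95.7 CPM in Rpl5+/- and 131.3, 95.4 and 79.04 CPM in Rpl11+/-. The Rpl11+/- clones lay on both sides of WT, with clone 22 highest and clone 414 lowest. It was 105, 105 and 120.5 CPM in Rpl22+/-, 92.3, 95.3 and 95.2 CPM in Rpl22-/- and 97.5, 93.7 and 94.8 CPM in Rpl10 R98S. It was 91.8, 85.5 and 81.5 CPM in Rps15 P131S and 93.9, 96.3 and 77.4 CPM in Rps15 H137Y. Rpl22+/- lay above WT and P131S below, and edgeR called Mdm2 RNA in no comparison. Mdm2 footprints were 32.5, 29.7 and 29.5 CPM in WT, 22.1, 28.2 and 32.2 CPM in Rpl5+/- and 38, 29.3 and 28.3 CPM in Rpl11+/-. They were 20.7, 20.2 and 21.4 CPM in Rps15 P131S and 19.8, 22.8 and 13.3 CPM in Rps15 H137Y. Every Rps15 clone had fewer Mdm2 footprints than every WT clone. Mdm2 footprints fell in Rps15 H137Y (-0.71 ± 0.20, adjusted p = 0.0249), a call that was lost without clone 6, without WT clone 1 and with these 2 genotypes fitted alone, and the change in Rps15 P131S was -0.56 ± 0.20, adjusted p = 0.0618, which DESeq2 and limma voom called. Footprints were 22.9, 33.8 and 41.04 CPM in Rpl22+/-, 26.3, 32.9 and 31.5 CPM in Rpl22-/- and 34.3, 32.6 and 28.9 CPM in Rpl10 R98S, all overlapping WT.

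Mdm4, which binds p53 and dampens its activity, was called in no comparison of the main fits. Fitted alone with WT, Mdm4 RNA was called higher in Rpl10 R98S (0.209, adjusted p = 0.00686) and lower in Rps15 P131S (-0.324, adjusted p = 0.00581). Its RNA was 142, 128 and 134 CPM in WT, 127, 135 and 126 CPM in Rpl5+/- and 188, 131.4 and 136 CPM in Rpl11+/-. It was 141, 133 and 194 CPM in Rpl22+/-, 122, 121 and 127 CPM in Rpl22-/- and 159, 158 and 146 CPM in Rpl10 R98S. It was 108, 107 and 108 CPM in Rps15 P131S and 143, 158 and 86.6 CPM in Rps15 H137Y. Rpl10 R98S lay above WT, and Rpl22-/- and P131S below it. Its footprints were 17.8, 18.1 and 11.7 CPM in WT, 10.6, 13.9 and 15.8 CPM in Rpl5+/- and 3.45, 11.9 and 13.9 CPM in Rpl11+/-. Rpl11+/- clone 22 had the most Mdm4 RNA of its genotype and the fewest Mdm4 footprints of all 24 clones. Mdm4 footprints were 9.12, 13.4 and 15.9 CPM in Rpl22+/-, 16.4, 17.9 and 16.7 CPM in Rpl22-/- and 11.7, 15.1 and 12.5 CPM in Rpl10 R98S. They were 11.04, 11.1 and 12.1 CPM in Rps15 P131S and 14.7, 11.96 and 15.4 CPM in Rps15 H137Y, and all groups overlapped WT.

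Cdkn1a encodes p21, the inhibitor of cyclin-dependent kinases through which p53 halts the cell cycle. Its RNA was 279.7, 303 and 318 CPM in WT, 293, 284 and 269.8 CPM in Rpl5+/- and 461, 292 and 308 CPM in Rpl11+/-. Only clone 22 among these 6 mutant clones lay above WT. RNA was 305, 369 and 320.2 CPM in Rpl22+/-, 349, 328 and 276 CPM in Rpl22-/- and 307, 314 and 298 CPM in Rpl10 R98S. It was 204, 365 and 284 CPM in Rps15 P131S and 275, 282 and 260.5 CPM in Rps15 H137Y, and every group overlapped WT. The largest change of Cdkn1a RNA against WT was 0.24 ± 0.17, adjusted p = 0.387, in Rpl11+/-, and it was -0.001 without clone 22. Footprints were 125, 128 and 180.0 CPM in WT, 191, 199 and 147 CPM in Rpl5+/- and 335, 221 and 170.5 CPM in Rpl11+/-, with a change of 0.75 ± 0.21, adjusted p = 0.164 in Rpl11+/-. Rpl11+/- clone 414 lay below WT clone 3, so the groups overlapped. Footprints were 226, 224 and 180.0 CPM in Rpl22+/-, 215, 178 and 168 CPM in Rpl22-/- and 172, 180.1 and 161 CPM in Rpl10 R98S. The Rps15 clones had 148, 237 and 199 CPM (P131S) and 161, 156 and 167 CPM (H137Y). No comparison of the main fits called Cdkn1a, although DESeq2 did so for footprints in Rpl11+/-, as did the fit without clone 414 (adjusted p = 0.0257).

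Plk3, a stress-responsive kinase, was the most often called of these genes. Its RNA was 5.08, 5.54 and 4.75 CPM in WT, 6.19, 5.54 and 7.05 CPM in Rpl5+/- and 11.2, 8.59 and 5.32 CPM in Rpl11+/-. It was 11.2, 13.9 and 11.7 CPM in Rpl22+/-, 13.8, 12.5 and 11.7 CPM in Rpl22-/- and 7.65, 7.75 and 7.14 CPM in Rpl10 R98S. It was 17.7, 21.97 and 22.9 CPM in Rps15 P131S and 14.8, 13.5 and 7.85 CPM in Rps15 H137Y. All clones of the last 5 genotypes lay above all WT clones, while Rpl5+/- and Rpl11+/- each had 1 clone within the WT range. Plk3 RNA rose by 2.02 ± 0.22, adjusted p = 5.85e-07 in Rps15 P131S and by 1.24 ± 0.22, adjusted p = 0.000138 in Rps15 H137Y. It rose by 1.26 ± 0.22, adjusted p = 0.00174 in Rpl22+/- and by 1.31 ± 0.22, adjusted p = 0.00095 in Rpl22-/- (1.24, adjusted p = 0.00676 without the labelled clone 30). The rise in Rpl11+/- (0.71 ± 0.22, adjusted p = 0.0389) was lost without clone 22, clone 406 or any 1 WT clone, and under limma voom (adjusted p = 0.114). It was also lost by edgeR with no filter on low counts (adjusted p = 0.0593) and when fitted alone with WT (adjusted p = 0.118). Plk3 footprints in Rpl22+/- were 1.82, 4.32 and 2.71 CPM against 2.66, 2.75 and 3.52 CPM in WT, and 4.22, 3.35 and 3.46 CPM in Rpl22-/-. The footprints of both Rpl22 genotypes overlapped WT. In the Rps15 genotypes they were 7.29, 4.41 and 5.43 CPM (P131S, change 0.94 ± 0.34, adjusted p = 0.0636) and 4.00, 6.54 and 7.42 CPM (H137Y, change 1.01 ± 0.34, adjusted p = 0.06), above every WT clone.

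Ccng1, which encodes cyclin G1 and feeds back on Mdm2, rose in Rpl10 R98S and Rps15 H137Y. Its RNA was 209, 187 and 199 CPM in WT, 376, 327 and 319.7 CPM in Rpl10 R98S and 328, 377 and 381 CPM in Rps15 H137Y, with no overlap with WT. The rise was 0.78 ± 0.20, adjusted p = 0.0176 in Rpl10 R98S, lost without clone A29 or WT clone 2 or 3, and 0.87 ± 0.20, adjusted p = 0.00242 in Rps15 H137Y. Footprints in Rps15 H137Y were 116, 168 and 114 CPM against 79.5, 76.01 and 67.7 CPM in WT, a rise of 0.84 ± 0.22, adjusted p = 0.0155 that was lost without clone 2 or WT clone 2 or 3. In Rpl5+/- Ccng1 RNA was 172, 143 and 184 CPM, below all WT clones but not called (-0.25 ± 0.20, adjusted p = 0.613). In Rpl11+/- it was 411, 257 and 163 CPM, with clones 22 and 406 above WT and clone 414 below.

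Zmat3, an RNA-binding p53 target, had its lowest RNA level in Rpl5+/-. It was 25.6, 25.1 and 29.4 CPM there against 49.2, 43.9 and 52.3 CPM in WT, with no overlap (-0.86 ± 0.28, adjusted p = 0.148). It was 105, 49.3 and 33.02 CPM in Rpl11+/- and 77.1, 67.7 and 60.7 CPM in Rpl10 R98S. Zmat3 footprints were 19.3, 9.96 and 14.1 CPM in Rpl5+/- and 29.9, 17.03 and 21.9 CPM in WT, which overlapped. The difference between Rpl5+/- and Rpl11+/- RNA was -1.22 ± 0.28, adjusted p = 0.0953, although no clone of the 2 genotypes overlapped.

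Gadd45a, which encodes a DNA damage-inducible stress protein, had 13.8, 8.90 and 16.03 CPM of RNA in Rpl10 R98S against 25.5, 25.8 and 28.3 CPM in WT. The groups did not overlap, and the change was -1.06 ± 0.38, adjusted p = 0.0729. Gadd45a footprints showed the same separation, with 12.1, 7.63 and 11.5 CPM in Rpl10 R98S against 16.3, 14.97 and 19.99 CPM in WT (-0.71 ± 0.48, adjusted p = 0.595). In Rpl5+/- Gadd45a RNA was 32.7, 41.1 and 32.8 CPM, above every WT clone but not called (0.42 ± 0.36, adjusted p = 0.642). Btg2, an antiproliferative gene, had 31.3, 25.6 and 30.2 CPM of RNA in Rpl22-/- against 47.9, 41.3 and 51.1 CPM in WT (-0.69 ± 0.30, adjusted p = 0.237, and -0.75, adjusted p = 0.356, without the labelled clone 30). Btg2 footprints were 12.99, 8.43 and 8.16 CPM in Rpl11+/- against 5.88, 5.53 and 5.04 CPM in WT, with no overlap (0.85 ± 0.29, adjusted p = 0.294). In Rps15 P131S, clone 20 was lowest of its genotype for Gadd45a RNA (14.2 CPM) and for Btg2 RNA (14.9 CPM). Plk2, a kinase related to Plk3, had 5 RNA counts in all libraries together and was not tested.

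**Figure D2:**
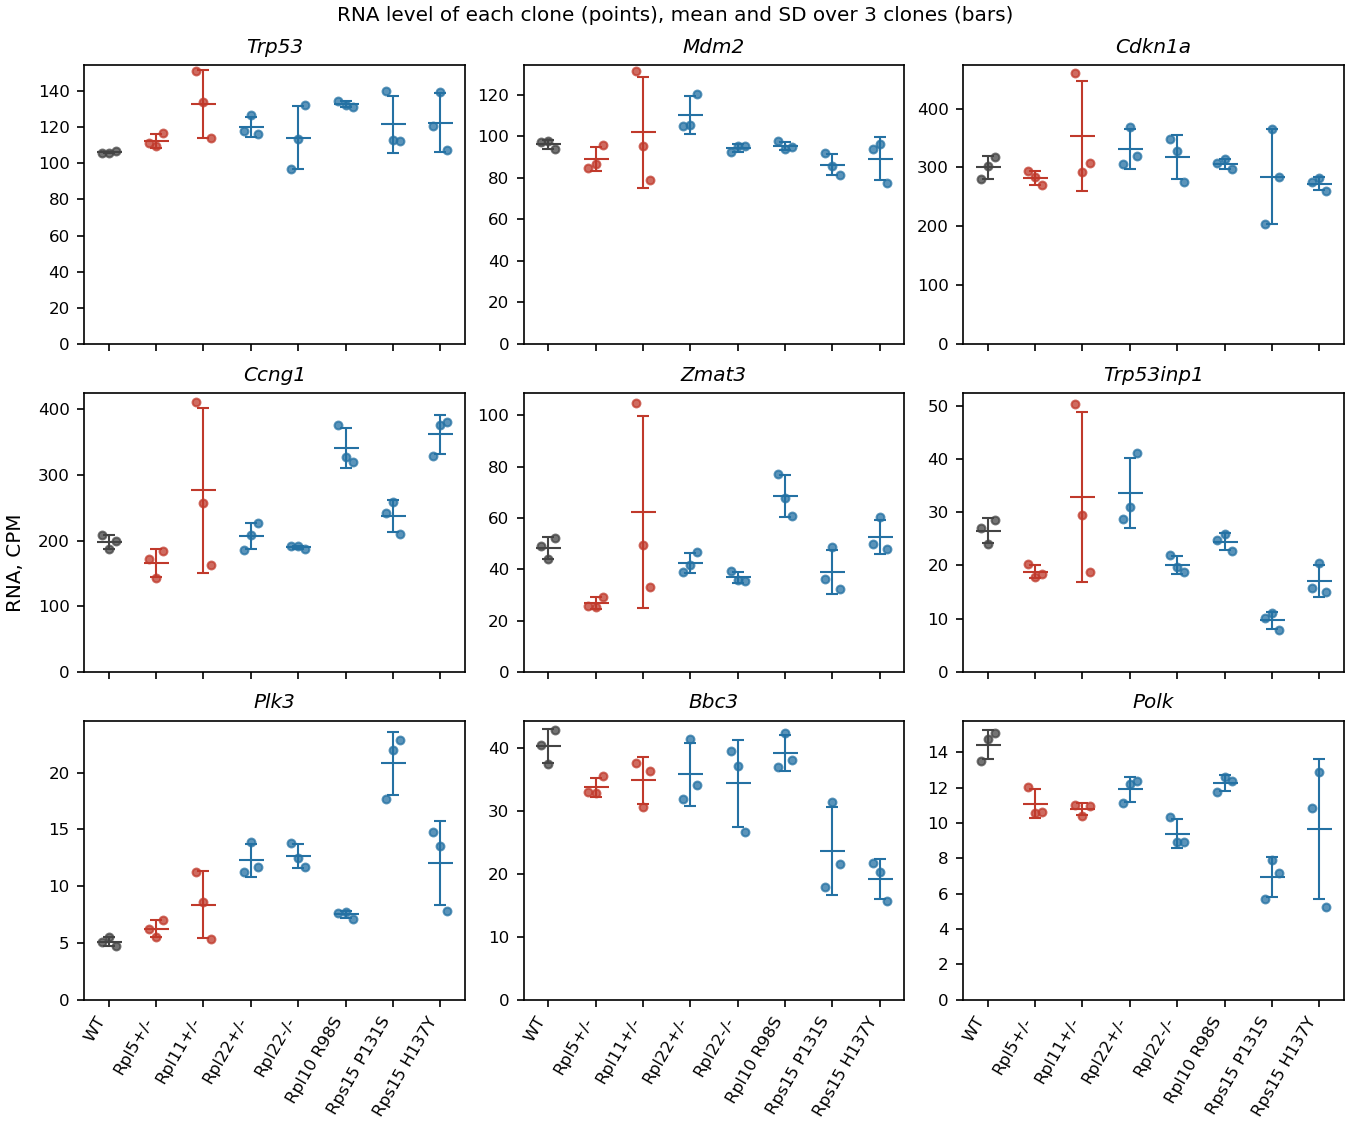
RNA level in CPM of 9 genes in each clone (points), with the mean and SD over the 3 clones of a genotype (bars); grey is WT, red Rpl5+/- and Rpl11+/-, blue the other mutants. The Rpl11+/- clones spread widely in Ccng1, Zmat3 and Trp53inp1, and Plk3 is highest in Rps15 P131S.

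The genes of cell death moved in both directions. Bax, a pore-forming killer protein of mitochondria, had 187, 188 and 166 CPM of RNA in Rpl10 R98S against 127, 118 and 115 CPM in WT and rose (0.59 ± 0.11, adjusted p = 0.00169). Bax footprints were 88.2, 78.8 and 85.8 CPM in Rps15 P131S against 56.1, 52.3 and 55.2 CPM in WT, a rise of 0.63 ± 0.16, adjusted p = 0.00969 that was lost without WT clone 2. In both cases no clone overlapped WT. Bax RNA in Rpl11+/- was 169, 148 and 121 CPM, which overlapped WT, and in Rpl5+/- 118, 112 and 119 CPM. Bbc3, which encodes the death activator PUMA, fell in both Rps15 genotypes. Its RNA was 17.8, 31.4 and 21.5 CPM in Rps15 P131S (-0.77 ± 0.17, adjusted p = 0.00105) and 21.7, 20.2 and 15.6 CPM in Rps15 H137Y (-1.07 ± 0.17, adjusted p = 6.89e-05), against 40.5, 37.4 and 42.7 CPM in WT. Footprints of Bbc3 were 6.20, 9.54 and 5.29 CPM in Rps15 P131S against 19.7, 11.9 and 23.5 CPM in WT, a change of -1.39 ± 0.33, adjusted p = 0.00594. These clones did not overlap WT, in contrast to the footprints of Rps15 H137Y, 10.2, 13.3 and 6.64 CPM, which did.

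Trp53inp1, a p53-induced nuclear protein linked to death and autophagy, fell in the same genotypes. Its RNA was 26.96, 23.98 and 28.6 CPM in WT, 10.1, 11.1 and 7.80 CPM in Rps15 P131S and 15.8, 20.5 and 15.02 CPM in Rps15 H137Y. The changes were -1.46 ± 0.24, adjusted p = 9.84e-05 and -0.64 ± 0.24, adjusted p = 0.0383, in that order, the second lost without clone 16, clone 6, WT clone 1 or WT clone 3. Footprints of Trp53inp1 were 4.41, 3.26 and 1.88 CPM in Rps15 P131S against 18.1, 8.41 and 14.6 CPM in WT (-2.10 ± 0.32, adjusted p = 0.000204). In Rpl11+/- Trp53inp1 RNA was 50.2, 29.4 and 18.8 CPM, with clone 22 above WT and clone 414 below. In Rpl5+/- it was 20.3, 17.8 and 18.5 CPM, below every WT clone but not called (-0.49 ± 0.24, adjusted p = 0.35).

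Aen, a nuclease of apoptosis, rose in RNA of Rps15 H137Y, with 52.9, 63.4 and 54.9 CPM against 40.5, 36.2 and 37.5 CPM in WT (0.58 ± 0.17, adjusted p = 0.00785). It also rose in Rps15 P131S, with 65.3, 43.7 and 44.3 CPM (0.42 ± 0.17, adjusted p = 0.0398), which was lost without clone 20 or any 1 WT clone and under limma voom. Apaf1, the scaffold of the apoptosome, fell slightly in RNA, from 70.4, 71.6 and 72.7 CPM in WT to 48.2, 53.4 and 60.3 CPM in Rps15 P131S (-0.41 ± 0.09, adjusted p = 0.00125). Its calls in Rpl10 R98S (-0.30 ± 0.09, adjusted p = 0.0392) and Rps15 H137Y (-0.24 ± 0.09, adjusted p = 0.0467) did not hold throughout: the first was lost without any 1 of the 6 clones compared, the second without H137Y clone 2 or any 1 WT clone. Apaf1 RNA lay below all 3 WT clones in every clone of all 7 mutant genotypes, at 48.2 to 70.1 CPM. Apaf1 footprints, in contrast, overlapped WT in all 7, with 66.1 to 71.5 CPM in WT and 55.3 to 89.8 CPM in the mutants.

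Fas, a death receptor, had 21.9, 12.6 and 11.2 CPM of footprints in Rpl11+/- against 7.68, 7.31 and 8.60 CPM in WT. All 3 Rpl11+/- clones lay above WT, with a change of 0.95 ± 0.24, adjusted p = 0.15. Fas RNA was 6.13, 3.97 and 3.39 CPM in Rpl11+/- and 3.64, 3.45 and 4.30 CPM in WT, which overlapped. The lowest Fas footprints were those of Rps15 P131S, 4.82, 6.54 and 5.91 CPM (-0.45 ± 0.24, adjusted p = 0.236). Phlda3, an inhibitor of Akt signalling, had 15.3, 4.45 and 4.12 CPM of footprints in Rpl11+/- against 3.22, 3.43 and 4.21 CPM in WT, and clone 22 alone stood well above the rest. Pidd1, a death domain protein, had 23.02, 14.9 and 11.2 CPM of RNA in Rpl11+/- and 12.7, 11.9 and 11.8 CPM in WT, with clone 414 below WT. The Pidd1 change in Rpl11+/- was 0.43 ± 0.21, adjusted p = 0.194. In Rpl10 R98S its RNA was 16.2, 15.8 and 14.3 CPM, above every WT clone but not called (0.35 ± 0.21, adjusted p = 0.296). Ei24 and Tnfrsf10b, an endoplasmic reticulum protein and a death receptor for TRAIL, were not called in the main fits. Ei24 was called in RNA of Rpl10 R98S fitted alone with WT. Without clone 2 of Rps15 H137Y, Ei24 was called lower there in footprints and in the ratio of footprints to RNA. Ei24 RNA was 97.2 to 101 CPM in WT and 89.8 to 118 CPM in the mutants, and Tnfrsf10b RNA was 8.33 to 10.8 and 6.43 to 11.9 CPM. Of the death genes that were not tested, Pmaip1 and Perp had 0 RNA counts in all libraries together and 1 and 15 footprint counts. Eda2r had 80 RNA counts and 127 footprint counts over all libraries, passed the filter in footprints only, and had 0 footprint counts in all clones of Rpl22+/- and Rps15 P131S. Its largest footprint count in 1 library was 31, in Rpl11+/- clone 22, followed by 21 in WT clone 1 and in Rpl10 R98S clone A29. No fold is given for it.

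Among the repair genes, Polk stood lower than WT in every mutant genotype. Polk encodes a DNA polymerase that copies past damaged bases. Its RNA was 13.5, 14.8 and 15.1 CPM in WT, 12.03, 10.6 and 10.6 CPM in Rpl5+/- and 11, 10.4 and 10.9 CPM in Rpl11+/-. It was 11.1, 12.2 and 12.4 CPM in Rpl22+/-, 10.3, 8.92 and 8.92 CPM in Rpl22-/- and 11.7, 12.6 and 12.4 CPM in Rpl10 R98S. It was 5.68, 7.93 and 7.17 CPM in Rps15 P131S and 10.8, 12.9 and 5.26 CPM in Rps15 H137Y. All 21 mutant clones lay below all 3 WT clones, which serve as the control in every comparison. The fall was called in Rps15 P131S (-1.06 ± 0.20, adjusted p = 0.000158) and in Rps15 H137Y (-0.58 ± 0.19, adjusted p = 0.0188, lost without clone 6 or WT clone 3). Polk footprints were 38.1, 32.4 and 28.4 CPM in WT, 6.37, 11.97 and 13.5 CPM in Rps15 P131S (-1.64 ± 0.22, adjusted p = 8.35e-05) and 14.4, 16.6 and 13.1 CPM in Rps15 H137Y (-1.16 ± 0.22, adjusted p = 0.00163). Both footprint calls were kept in all 11 alternatives run on them.

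Rps27l, a p53 target related to a ribosomal protein of the small subunit, rose in footprints of both Rps15 genotypes. They were 183, 182 and 154 CPM in WT, 295, 335 and 299 CPM in Rps15 P131S (0.84 ± 0.21, adjusted p = 0.00751) and 277, 393 and 274 CPM in Rps15 H137Y (0.86 ± 0.21, adjusted p = 0.00947, lost without clone 2 or WT clone 3). RNA was 293, 307 and 299 CPM in WT, 446, 397 and 345 CPM in Rps15 P131S (0.40 ± 0.13, adjusted p = 0.0148, lost without clone 20) and 303, 369.6 and 235 CPM in Rps15 H137Y. The H137Y clones lay on both sides of WT in RNA and above it in footprints. In Rpl10 R98S the RNA was 411, 384 and 396 CPM (0.41 ± 0.13, adjusted p = 0.0429), a call lost without any 1 of the 6 clones compared. How reads shared with related ribosomal protein genes were assigned is not given in the sources used here. Rrm2b, a subunit of ribonucleotide reductase, had 13.96, 17.6 and 16.8 CPM of RNA in WT. It fell to 12.8, 11.2 and 10.8 CPM in Rps15 P131S (-0.47 ± 0.13, adjusted p = 0.00476) and 11.9, 9.95 and 10.7 CPM in Rps15 H137Y (-0.57 ± 0.13, adjusted p = 0.00132). Ddb2 and Xpc, which recognise damaged DNA for excision repair, were not called in the main fits. Ddb2 RNA in Rps15 H137Y was called by limma voom, and by edgeR without clone 16 or clone 2. Ddb2 RNA was 11.7 to 12.8 CPM in WT and 5.19 to 11.3 CPM in the Rps15 clones, all below WT (-0.41 ± 0.19, adjusted p = 0.0947 in H137Y). Ddb2 footprints were 13.5, 13.5 and 13.2 CPM in Rpl5+/- and 11.3, 13.7 and 15.8 CPM in Rpl11+/-, all below the 15.9 to 19.4 CPM of WT. The Ddb2 footprint change of Rpl5+/- and Rpl11+/- against the other mutants was -0.35 ± 0.12, adjusted p = 0.0869, which DESeq2 called. Xpc RNA stayed within 12.9 to 22.9 CPM over all 24 clones.

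Sesn1, which encodes sestrin 1, a stress protein that restrains growth signalling, fell in RNA of both Rps15 genotypes. It was 31.2, 31.1 and 32.6 CPM in WT, 18.9, 21.6 and 19.9 CPM in P131S (-0.65 ± 0.10, adjusted p = 3.2e-05) and 24.3, 27.6 and 20.1 CPM in H137Y (-0.40 ± 0.10, adjusted p = 0.00347). Its footprints overlapped WT in both. Fdxr, a mitochondrial reductase, kept within 20.4 to 26.98 CPM of RNA over all 24 clones. In Rps15 H137Y, clone 6 was the lowest of its genotype in 18 of the 26 genes tested in RNA, and the lowest clone in 40.3% of all genes.

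Because Rpl5 and Rpl11 both bind Mdm2, their loss was set beside the other defects directly. The mean of Rpl5+/- and Rpl11+/- against the mean of the other 5 mutant genotypes called 1 of 26 genes in RNA, Plk3, which was lower (-0.78 ± 0.13, adjusted p = 0.000418), against 21.3% of all genes. Plk3 remained lower without the labelled Rpl22-/- clone 30 (-0.76, adjusted p = 0.000787), against 20.5% of all genes. In footprints it called 1 of 27, Trp53inp1, which was higher (0.78 ± 0.17, adjusted p = 0.0125), against 5.28% of all genes. Without the 2 Rps15 genotypes on the other side, Plk3 alone was called in RNA, against 9.33% of all genes, and none in footprints, against 0.296%. The changes of Trp53, Mdm2, Mdm4 and Cdkn1a RNA in this comparison were 0.00 ± 0.07, 0.01 ± 0.07, 0.08 ± 0.10 and 0.07 ± 0.10. Rpl5+/- against Rpl11+/- called none, against 0.14% of all genes in RNA and 0.0123% in footprints. At an unadjusted p under 0.05 there were 9 of 26 genes in RNA, against 12.9% of all genes, and 7 of 27 in footprints, against 5.69%. DESeq2 called 4 genes lower in Rpl5+/- RNA, namely Zmat3, Trp53inp1, Ccng1 and Phlda3, against 1.21% of all genes, and 1, Fas, in footprints, against 0.253%, while limma voom called 0. The share of all genes called by limma voom is not given here, so its count of 0 shows nothing particular to these genes.

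The 3 Rpl11+/- clones stood further apart in these genes than the 3 WT clones. The median gap between the highest and lowest clone was 0.51 on the log2 scale over the 26 genes in RNA, against 0.16 in WT. Over all genes tested it was 0.30 in Rpl11+/- and 0.16 in WT. Clone 22 was the highest of the 3 in 20 of 26 genes in RNA and in 22 of 27 in footprints, against 37.1% and 37.5% of all genes tested. Clone 414 was the lowest in 15 of 26 and 18 of 27, against 34.5% and 32.3% of all genes. The order 22, 406, 414 from high to low held for 15 of 26 genes in RNA and 16 of 27 in footprints, against 21.3% and 22.9% of all genes; it was noticed after the values were seen and is not tested here. RNA and footprints of a clone come from 1 lysate, so the assays do not repeat the observation independently.

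In clone 22, Ccng1 RNA was 411 CPM, Zmat3 RNA 105 CPM and Phlda3 RNA 31.7 CPM, the highest of all 24 clones for each. In clone 414 the same genes had 163, 33.02 and 13.6 CPM, below every WT clone. Footprints of clone 22 lay above all 3 WT clones in 21 of 27 genes, against 33.9% of all genes, and those of clone 414 in 3 of 27, against 26.0%. RNA of clone 22 lay above all WT clones in 15 of 26 genes, against 39.2% of all genes, and below them in 7, against 38.3%. RNA of clone 414 lay above them in 3 of 26, against 33.4%, and below in 13, against 32.5%. Rpl11 itself did not follow this order, with 1063, 1150 and 1008 CPM of RNA in clones 22, 406 and 414. RNA of the interleukin 3 receptor genes Il3ra, Csf2rb and Csf2rb2 summed to 1950 CPM in clone 22, 1070 CPM in clone 406 and 1110 CPM in clone 414, against 876 to 1040 CPM in WT, and the part of these genes in the result was not tested. The 7 mast cell and basophil markers, of which Kit was at 0 and Gata2 the most abundant, summed to 593, 511 and 517 CPM in the same clones and to 442 to 475 CPM in WT. Clone 22 was instead lowest in RNA of the myeloid markers (33.9, 42.4 and 54.3 CPM, against 32.6 to 47 CPM in WT). It was also lowest in RNA of the erythroid markers (122, 150 and 151 CPM, against 99.5 to 122 CPM in WT). Erythroid footprints, however, were highest in clone 22 (323, 194 and 140 CPM, against 89.1 to 150 CPM in WT). The part of these markers was not tested either. Without clone 414, 10 genes were called in Rpl11+/- RNA, against 17.2% of all genes in that fit. Plk3, Ccng1, Phlda3, Zmat3, Pidd1, Trp53inp1, Aen, Trp53 and Bax were higher, and Rrm2b was lower. Without clone 22, none was called, against 4.74% of all genes. In footprints the fit without clone 414 called Fas, Cdkn1a and Ccng1 higher, against 1.20% of all genes.

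**Figure D3:**
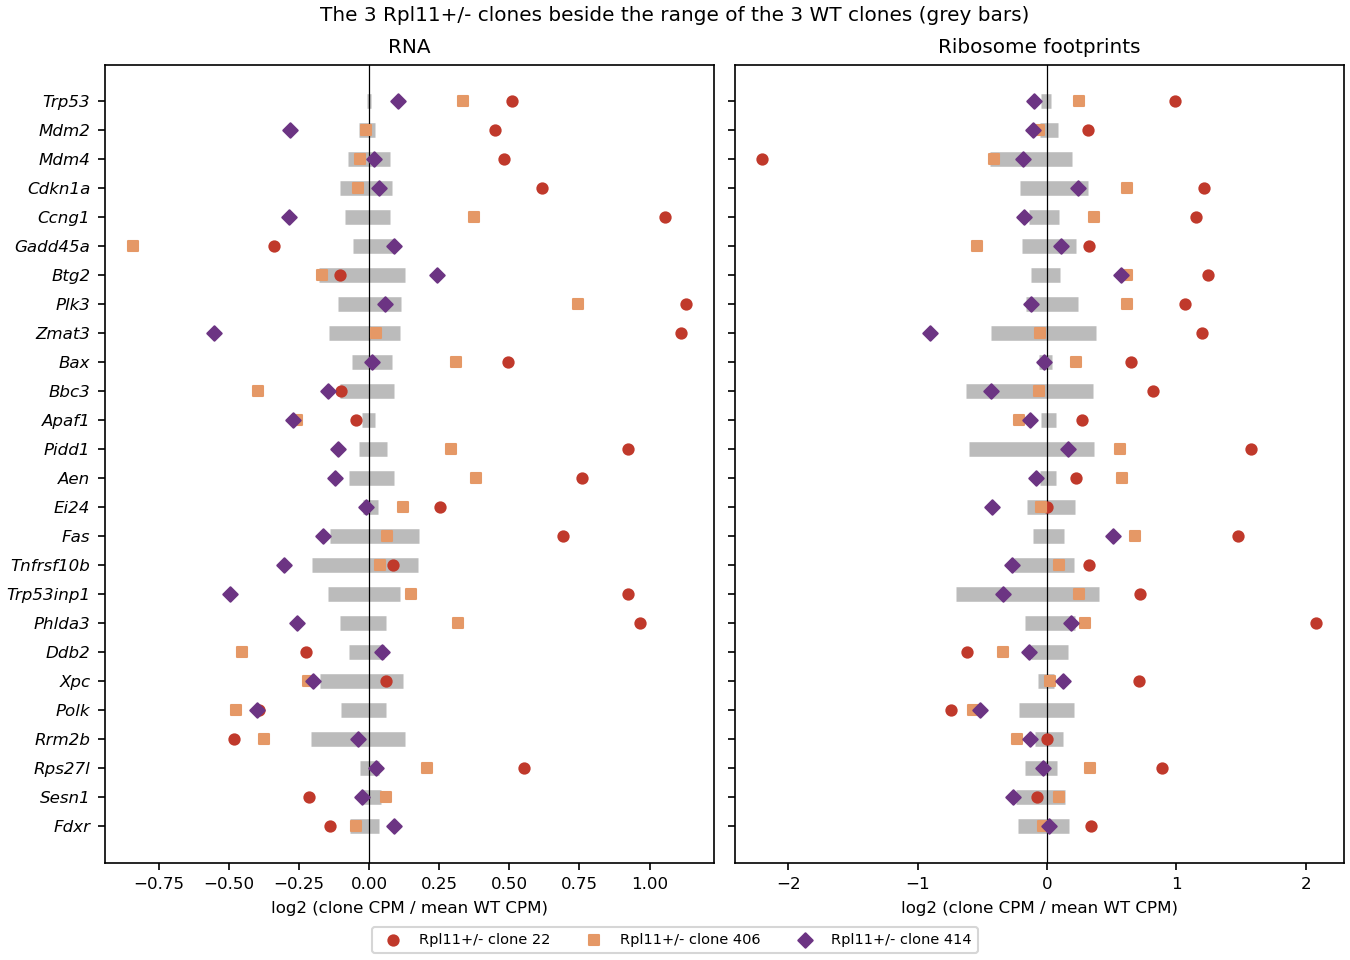
Level of each gene in the 3 Rpl11+/- clones on a log2 scale relative to the mean of WT, in RNA (left) and footprints (right); grey bars span the 3 WT clones. Clone 22 lies to the right of WT for most genes and clone 414 near or left of WT.

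The ratio of footprints to RNA, a measure of translation per messenger, was tested in 27 genes. None was called in any of the 9 comparisons of the main fit, which did not pair the RNA and footprints of a clone. The shares of all genes called were 0% in Rpl5+/-, 0% in Rpl11+/-, 0.00603% in Rpl22+/-, 0.0121% in Rpl22-/-, 0.217% in Rpl10 R98S, 3.14% in Rps15 P131S and 2.76% in Rps15 H137Y. They were 0.959% for Rpl5+/- and Rpl11+/- against the other mutants and 0% for Rpl5+/- against Rpl11+/-. In the order of these 9 comparisons, 0, 2, 3, 2, 1, 3, 4, 3 and 0 genes had an unadjusted p under 0.05, against 2.7%, 3.84%, 7.97%, 5.02%, 7.52%, 15%, 14.1%, 11% and 3.53% of all genes. Without the labelled Rpl22-/- clone 30, none was called in Rpl22-/- either, against 0.00603% of all genes. limma voom called 0 throughout, without a share of all genes given here, and DESeq2 called 1, Rps27l, higher in Rps15 H137Y, against 4.6% of all genes. With the clone as a paired replicate block, Rps27l was called higher and Mdm2 lower in Rps15 H137Y, and Cdkn1a higher in Rps15 P131S. The shares of all genes in that fit are given with the processing below.

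The log2 ratio of Mdm2 was -1.94, -1.62 and -1.57 in Rpl5+/- and -1.79, -1.70 and -1.48 in Rpl11+/-, both overlapping WT. It was -1.58, -1.72 and -1.67 in WT, -2.15, -2.08 and -1.93 in Rps15 P131S and -2.24, -2.08 and -2.54 in Rps15 H137Y. All Rps15 clones lay below all WT clones (-0.61 ± 0.24, adjusted p = 0.173 in H137Y). With the clone as a paired replicate block, the change in H137Y passed (adjusted p = 0.02). The log2 ratio of Cdkn1a was -1.17, -1.24 and -0.82 in WT, -0.62, -0.51 and -0.88 in Rpl5+/- and -0.46, -0.40 and -0.85 in Rpl11+/-. In Rps15 P131S it was -0.47, -0.62 and -0.51 (0.49 ± 0.27, adjusted p = 0.407, and adjusted p = 0.0183 with the replicate block). Cdkn1a ratios in P131S lay above all WT clones, and those of Rpl5+/- and Rpl11+/- overlapped WT. Over Rpl22+/-, Rpl22-/-, Rpl10 R98S and Rps15 H137Y the Cdkn1a ratio ran from -0.89 to -0.43, and that of Mdm2 over Rpl22+/-, Rpl22-/- and Rpl10 R98S from -2.19 to -1.51. For Plk3 the log2 ratio was -0.94, -1.01 and -0.43 in WT, -2.62, -1.69 and -2.11 in Rpl22+/- and -1.71, -1.90 and -1.76 in Rpl22-/-. The Rpl22 clones lay below all WT clones without a call (-1.27 ± 0.40, adjusted p = 0.319 and -1.001 ± 0.40, adjusted p = 0.889, the second -1.06 with adjusted p = 1 without the labelled clone 30). For Trp53 it was 1.11, 0.90 and 0.61 in Rpl5+/- and 1.31, 0.73 and 0.62 in Rpl11+/-, again overlapping WT. It was 0.84, 0.78 and 0.85 in WT, 1.59, 1.23 and 1.03 in P131S and 1.51, 1.13 and 1.29 in H137Y. For Rps27l it was -0.68, -0.75 and -0.96 in WT and -0.13, 0.09 and 0.22 in H137Y (0.83 ± 0.25, adjusted p = 0.0632). The log2 ratio of Mdm4 was -2.99, -2.82 and -3.52 in WT, -3.59, -3.28 and -3.00 in Rpl5+/- and -5.77, -3.46 and -3.29 in Rpl11+/-. Over the other mutants it ran from -3.95 to -2.49, and every group overlapped WT, with the lowest value of all 24 in Rpl11+/- clone 22. The Trp53 and Rps27l ratios of the Rps15 H137Y clones lay above those of every WT clone. The replicate block also called Rps27l higher in H137Y.

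**Figure D4:**
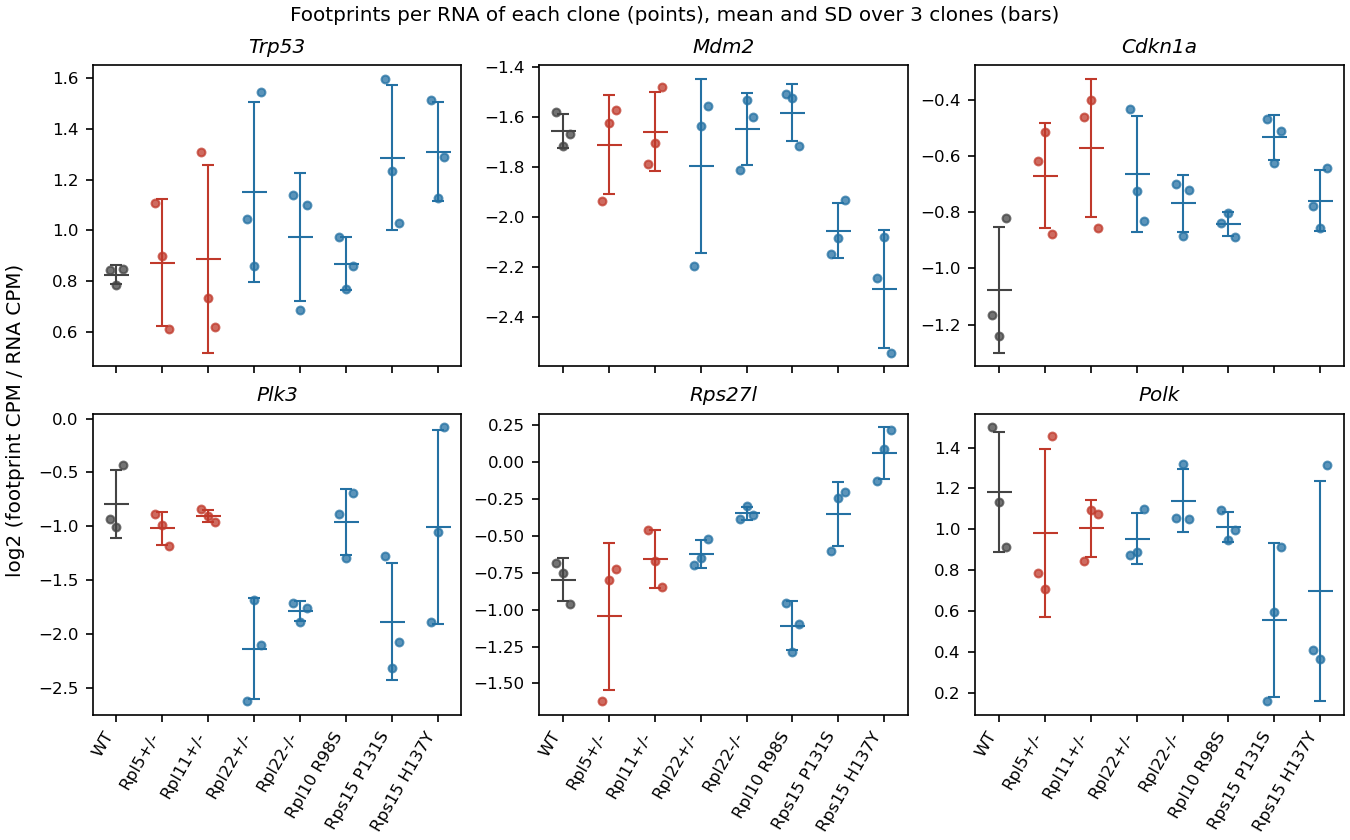
Log2 of footprint CPM over RNA CPM for 6 genes in each clone (points), with the mean and SD over the 3 clones of a genotype (bars). Mdm2 is lower in the Rps15 clones than in WT, and Plk3 is lower in the Rpl22 clones.

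Other p53 targets, regulators of p53 and cell cycle genes that p53 lowers through p21 were taken from 3 lists written with earlier results of these data known. Of 40 further p53 targets, 34 were tested in RNA. In Rpl5+/- 1 fell, Ddit4, an inhibitor of mTOR signalling (-0.82 ± 0.18, adjusted p = 0.0355), against 1.04% of all genes. In Rpl11+/- 4 rose and 4 fell, against 11.8% of all genes, among them Ddit4 (-1.08 ± 0.18, adjusted p = 0.00122) and Sesn2 (-0.60 ± 0.12, adjusted p = 0.00381), both lower, and Tap1 (0.72 ± 0.13, adjusted p = 0.00207), Tigar (0.52 ± 0.16, adjusted p = 0.0333) and Traf4 (0.42 ± 0.11, adjusted p = 0.019), higher. Polh, a further polymerase that copies past damage, was lower there (-0.42 ± 0.08, adjusted p = 0.00208). In Rps15 P131S 5 rose and 13 fell (47% of all genes), and in Rps15 H137Y 4 rose and 10 fell (41%), with Ddit4 the most lowered in both (-2.16 ± 0.19 and -1.85 ± 0.19). In Rpl22+/- 0 rose and 4 fell (3.9%), in Rpl22-/- 1 rose and 4 fell (5.27%, and the same counts beside 2.73% without the labelled clone 30), and in Rpl10 R98S 2 rose and 6 fell (12.8%).

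Of 34 regulators of p53, 31 were tested in RNA. In Rpl5+/- the genes Rps7 (0.36 ± 0.06, adjusted p = 0.0162), Rpl23 (0.33 ± 0.06, adjusted p = 0.0167) and Rpl11 (0.23 ± 0.05, adjusted p = 0.0355) rose, while the targeted Rpl5 fell (-0.57 ± 0.05, adjusted p = 2.47e-06), against 1.04% of all genes called. These encode ribosomal proteins known to bind Mdm2. The rise was not particular to them, as genes of ribosomal proteins outside the list also lay above every WT clone. Rpl22 RNA was 1144 to 1221 CPM in Rpl5+/- and 1160 to 1226 CPM in Rpl11+/-, against 933.3 to 967.5 CPM in WT. Rps15 RNA was 1688 to 1827 CPM and 1765 to 2047 CPM, against 1433 to 1455 CPM. Rpl10 RNA was 2243 to 2312 CPM and 2323 to 2473 CPM, against 1884 to 1982 CPM. In Rpl11+/- 7 rose and 3 fell (11.8% of all genes), with the targeted Rpl11 lower (-0.64 ± 0.05, adjusted p = 8.12e-07) and Mybbp1a (0.44 ± 0.12, adjusted p = 0.018), Rpl23 (0.42 ± 0.06, adjusted p = 0.00029), Rps7 (0.40 ± 0.06, adjusted p = 0.000386), Prmt5 (0.32 ± 0.09, adjusted p = 0.0183) and Rpl26 (0.29 ± 0.08, adjusted p = 0.0211) higher. In Rps15 P131S 15 rose and 6 fell (47% of all genes), and in Rps15 H137Y 14 rose and 4 fell (41%), with Hipk2, a kinase that phosphorylates p53, higher in both (0.81 ± 0.24 and 1.42 ± 0.24).

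All 30 cell cycle genes of the third list were tested. In Rpl5+/- 1 fell, Ect2 (-0.28 ± 0.06, adjusted p = 0.0355), against 1.04% of all genes, and in Rpl11+/- 5 fell and 0 rose, against 11.8%, among them Ect2 (-0.46 ± 0.06, adjusted p = 0.000184), Cdc25c (-0.25 ± 0.08, adjusted p = 0.0419), Mki67 (-0.23 ± 0.06, adjusted p = 0.0173) and Aurkb (-0.21 ± 0.06, adjusted p = 0.0198). These act in cell division and mitotic entry. In Rpl10 R98S 11 fell and 0 rose (12.8% of all genes), in Rps15 P131S 8 fell and 4 rose (47%), and in Rps15 H137Y 15 fell and 2 rose (41%). The median change of the list was -0.08 in Rpl5+/-, -0.12 in Rpl11+/-, -0.17 in Rpl10 R98S and -0.20 in Rps15 H137Y, where that of all genes tested was within 0.01 of 0.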

How the data were processed

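RNA-seq of poly(A) RNA and ribosome profiling were carried out on the same 24 lysates, giving 48 libraries. The deposited table holds estimated counts for 55487 genes, which the authors made with STAR 2.6.1d and Salmon 1.4.0 on GRCm38, per the submitters' processing notes. DESeq2 1.30 is also listed there. The annotation, the feature counted and the treatment of reads with several matches are not given in the sources used here. The table gave symbols for 32115 genes, a gene name list supplied 23112 more, and 260 had none.

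The estimated counts were rounded and tested with edgeR 4.0.16 (quasi-likelihood, R 4.3.3) within each assay. TMM scaling was used, with a filter of at least 10 counts in a group's worth of libraries and 15 in total, and Benjamini-Hochberg adjustment over all genes tested, which were 12814 in RNA, 16214 in footprints and 16573 in the ratio. The ratio was the interaction of assay and genotype over all 48 libraries, without the clone as a block in the main fit. Standard errors were taken from the change and its F statistic. The 9 comparisons were each mutant against WT, Rpl5+/- and Rpl11+/- against the other 5 mutants, and Rpl5+/- against Rpl11+/-. An exact permutation test of 3 against 3 clones cannot go below 0.1 and was not used. Alternatives were DESeq2 1.42.0, limma voom 3.58.1, RLE scaling, no filter, fits of the 2 genotypes compared, leaving out each clone, and the clone as a block in the ratio. The fit was checked on simulated data. The comparison without the Rps15 genotypes was added after seeing the data.

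RNA and footprints of a clone are paired, since each lysate was divided per the labels. Their deviations from the group means correlated at 0.172 to 0.581 for the same clone and at -0.484 to -0.014 for different clones of a genotype, over 12072 genes. All libraries of a genotype differed by more than sampling noise. Each main fit held all genotypes together, with a spread per gene shared by them. Its p-values therefore rest on the spread between clones of all genotypes, not only of those compared. That spread was unequal. Over all genes tested in RNA, the median log2 gap between the highest and lowest clone ran from 0.159 in WT to 0.342 in Rps15 H137Y. It was 0.175 in Rpl5+/-. Trp53, Mdm2, Mdm4 and Cdkn1a were to be given with the values of every clone, except that some ratios stand as ranges. Also named were members called in Rpl5+/- or Rpl11+/-, up to 6 called members with the largest change in each other comparison, members that failed the filter, and from each other list up to 6 called genes in Rpl5+/- or Rpl11+/- RNA and up to 3 elsewhere. Further members were named after their values were seen. The members and lists were chosen with earlier results of these data known. Some items of the lists are not reported here.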

Additional observations from a re-analysis of the deposited data

How the results depend on the processing

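DESeq2 called 2 of the p53 genes in Rpl11+/-, 7 in H137Y and 8 in P131S footprints, against 0, 4 and 5 by edgeR, and 1.48%, 15.9% and 21% of all genes. It called 3 in footprints of Rpl5+/- and Rpl11+/- against the other mutants and 1 in Rpl5+/- against Rpl11+/-, against 1 and 0, and 8.75% and 0.253% of all genes. In RNA it called 2 in Rpl11+/-, 2 in Rpl22-/-, 7 in Rpl10 R98S, 4 in Rpl5+/- against Rpl11+/- and 2 in Rpl5+/- and Rpl11+/- against the other mutants, against 1, 1, 4, 0 and 1, and 14.9%, 7.05%, 15.6%, 1.21% and 23.1% of all genes. In the ratio of H137Y it called 1, and 4.6% of all genes. With the 2 genotypes fitted alone, RNA calls were 6 in Rpl5+/- (1 higher and 5 lower), 2 in Rpl22+/-, 8 in Rpl22-/- and 13 in Rpl10 R98S, beside 14.1%, 9.44%, 10.9% and 32.6% of all genes, and footprint calls were 2 in Rpl10 R98S, beside 3.59%. Rpl11+/- RNA fitted alone with WT held 1 call, as in the main fit, but it was Polk, lower, in place of Plk3. limma voom and the fit with no filter each called 0 in Rpl11+/- RNA. Shares of all genes are not given here for these fits of Rpl11+/- RNA, so their counts show nothing particular to these genes. Without the 2 Rps15 genotypes, footprints of Rpl5+/- and Rpl11+/- against the other mutants held 0 calls, beside 0.296% of all genes. With the replicate block, the ratio held 2 calls in H137Y (Rps27l and Mdm2) and 1 in P131S (Cdkn1a), beside 3.83% and 4.86% of all genes, and the block changed no other call. The cause of these shifts was not tested. RLE scaling kept all 27 counts within 1.5 times, limma voom and no filter 26 of 27 each, and DESeq2 16 of 27.

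Leaving out 1 clone at a time, the counts in RNA ran from 0 to 10 in Rpl11+/-, 1 to 2 in Rpl10 R98S, 0 to 6 in Rpl5+/- against Rpl11+/- and 1 to 3 in Rpl5+/- and Rpl11+/- against the other mutants. The highest in Rpl11+/- and in Rpl5+/- against Rpl11+/- came without Rpl11+/- clone 414, where 17.2% and 3.55% of all genes were called. Over the same fits, the shares of all genes ran from 4.74% to 17.2%, 6.24% to 8.57%, 0.0234% to 3.55% and 14.9% to 24.9%, in the order of these counts. In footprints they ran from 0 to 3 in Rpl11+/-, 2 to 5 in H137Y and 1 to 2 in Rpl5+/- and Rpl11+/- against the other mutants, and in the ratio of H137Y from 0 to 1. The shares of all genes there ran from 0.0123% to 1.2%, 6.83% to 9.08%, 3.04% to 5.87% and 1.27% to 2.5%.

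No called change turned its direction in any alternative. Of the changes of Trp53, Mdm2, Mdm4 and Cdkn1a that were not called, 28 turned in 53 fits, with values there of -0.14 to 0.186. Leaving out 1 clone gave these ranges of the log2 change. Cdkn1a RNA ran from -0.02 to 0.072 (Rpl10 R98S), -0.001 to 0.357 (Rpl11+/-), -0.052 to 0.127 (Rpl5+/- and Rpl11+/- against the other mutants) and -0.3 to 0.112 (P131S). Mdm2 footprints ran from -0.084 to 0.14 (Rpl11+/-), -0.108 to 0.276 (Rpl22+/-) and -0.081 to 0.076 (Rpl22-/-). Mdm2 RNA ran from -0.031 to 0 (Rpl10 R98S), -0.14 to 0.238 (Rpl11+/-), -0.348 to 0.03 (Rpl5+/- against Rpl11+/-) and -0.103 to 0.086 (Rpl5+/- and Rpl11+/- against the other mutants). Mdm2 ratio ran from -0.12 to 0.06 (Rpl11+/-), -0.252 to 0.04 (Rpl22+/-), -0.054 to 0.072 (Rpl22-/-), -0.109 to 0.097 (Rpl5+/- against Rpl11+/-) and -0.125 to 0.053 (Rpl5+/-). Mdm4 footprints ran from -0.091 to 0.186 (Rpl22-/-). Mdm4 RNA ran from -0.008 to 0.267 (Rpl11+/-), -0.015 to 0.122 (Rpl5+/- and Rpl11+/- against the other mutants) and -0.227 to 0.163 (H137Y). Mdm4 ratio ran from -0.432 to 0.127 (H137Y). Trp53 footprints ran from -0.526 to 0.06 (Rpl5+/- against Rpl11+/-). Trp53 RNA ran from -0.009 to 0.212 (Rpl22-/-) and -0.049 to 0.052 (Rpl5+/- and Rpl11+/- against the other mutants). Trp53 ratio ran from -0.03 to 0.078 (Rpl10 R98S), -0.14 to 0.22 (Rpl11+/-), -0.182 to 0.186 (Rpl5+/- against Rpl11+/-) and -0.075 to 0.173 (Rpl5+/-). Under limma voom, Mdm2 was at -0.016 in Rpl22+/- footprints, -0.005 in RNA of Rpl5+/- and Rpl11+/- against the other mutants and -0.002 in the Rpl22-/- ratio. With no filter, the Mdm2 ratio was -0.005 in Rpl22-/- and 0.01 in Rpl5+/- against Rpl11+/-. Trp53 RNA of Rpl5+/- and Rpl11+/- against the other mutants was -0.001 with DESeq2, -0.001 with RLE scaling and 0 with no filter.

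With 3 clones a group, changes near the spread between clones were not detectable, and Eda2r, with 127 footprint counts in all, gave no usable fold.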
